A study of Arabidopsis thaliana with 6 samples.

Results

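SAG13 (AT2G29350), a senescence-associated gene that codes for a short-chain dehydrogenase, lies in a row of 9 related genes on chromosome 2 of Arabidopsis thaliana, AT2G29290 to AT2G29370. The 9 genes are described here in 6 messenger RNA libraries of whole Col-0 plants. SAG13 was chosen by its higher count with cesium chloride (CsCl) in these same libraries, and the other 8 were chosen by their place beside it. The values of SAG13 between the groups are therefore a description and support nothing. All 9 were among the 33977 gene IDs of the files, and all 9 passed the filter on low counts. SAG13 passed it only through its counts with CsCl.

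Both groups were wild-type Col-0 plants raised from seed for 10 days at 22 °C, with a light period of 16 h and a dark period of 8 h daily. The 3 control samples, labelled Mock, had plain MS medium, a mineral medium for plants, at reduced strength. The 3 other samples had that medium with 1.5 mM CsCl from seed onwards. The labels do not say if the samples of a group were separate cultures. The p-values therefore rest on the spread among these samples alone, and that spread may be technical.

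Libraries held from 32075069 to 44108369 counts, and CsCl replicate 3 was the deepest. Between 65.5% and 73.4% of the counts from 1 to 50 were even numbers in each library, so both mates of a pair may have been counted and low counts may stand for fewer fragments. Markers of both main parts of a plant were present: the summed level of 8 green tissue markers was 57500 to 65704 CPM (the unit of counts adjusted for library depth) in controls and 55905 to 59292 with CsCl. The summed level of 6 root tissue markers was 5895 to 6231 CPM in controls and 4500 to 5065 with CsCl.

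Short-chain dehydrogenases are enzymes that oxidise alcohols or reduce ketones with the help of a nicotinamide cofactor. They hold this cofactor in a fold with a glycine-rich loop near the start of the protein, and a tyrosine and a lysine form part of the active site. In plants of the nightshade family, tropinone reductases of this class stand at a branch of tropane alkaloid synthesis. The Arabidopsis genes are called tropinone reductase-like for their sequence. SAG13 is best known as a gene whose transcript appears early in leaf ageing, and its transcript has also been used as a marker of cell death and defence.

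The coding stretch around the glycine-rich loop is shown for all 9 genes, since it shows how alike they are and where they fall into groups. The sequences are from RefSeq (TAIR10.1 build, chromosome 2, coding strand), and capitals mark the 8 codons of the loop.
AT2G29290: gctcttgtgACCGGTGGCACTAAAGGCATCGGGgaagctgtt
AT2G29300: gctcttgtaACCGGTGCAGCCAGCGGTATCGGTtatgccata
AT2G29310: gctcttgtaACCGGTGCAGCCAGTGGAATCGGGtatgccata
AT2G29320: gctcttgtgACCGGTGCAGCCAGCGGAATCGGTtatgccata
TRI (AT2G29330): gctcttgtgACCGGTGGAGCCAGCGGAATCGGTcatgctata
AT2G29340: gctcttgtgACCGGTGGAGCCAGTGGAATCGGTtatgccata
SAG13 (AT2G29350): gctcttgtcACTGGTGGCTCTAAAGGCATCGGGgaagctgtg
AT2G29360: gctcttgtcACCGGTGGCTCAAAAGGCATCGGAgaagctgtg
AT2G29370: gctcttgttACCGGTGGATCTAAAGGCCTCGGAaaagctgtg

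In 8 of the 9 genes this stretch read as the pattern TGxxxGIG of the class (x, any amino acid), starting at codon 15 to 24. AT2G29370 did not hold those letters, and its stretch is the one that aligned with SAG13. All 9 held the active site pattern YxxxK, starting at codon 159 to 168. All 9 genes lay on the same strand, with no other annotated gene between them. The first member, AT2G29290, overlapped a transcribed pseudogene, AT2G29280, on the same strand; that pseudogene is not among the counted IDs.

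By coding sequence the 9 genes formed 2 groups, drawn after the identities were seen. SAG13, AT2G29290, AT2G29360 and AT2G29370 shared 82.1% to 87.0% of aligned bases with each other. AT2G29300, AT2G29310, AT2G29320, TRI (annotated as a tropinone reductase) and AT2G29340 shared 80.2% to 92.2%. Between the 2 groups identity was 64.5% to 72.4%. Within the row, the closest coding sequence to SAG13 was that of AT2G29290, at 87.0%, although 5 genes stand between them. AT2G29170, a family gene outside the row, shared 89.7% with SAG13 over only 321 aligned bases. The closest pair of all was AT2G29300 and AT2G29320, at 92.2%.

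**Figure D1:**
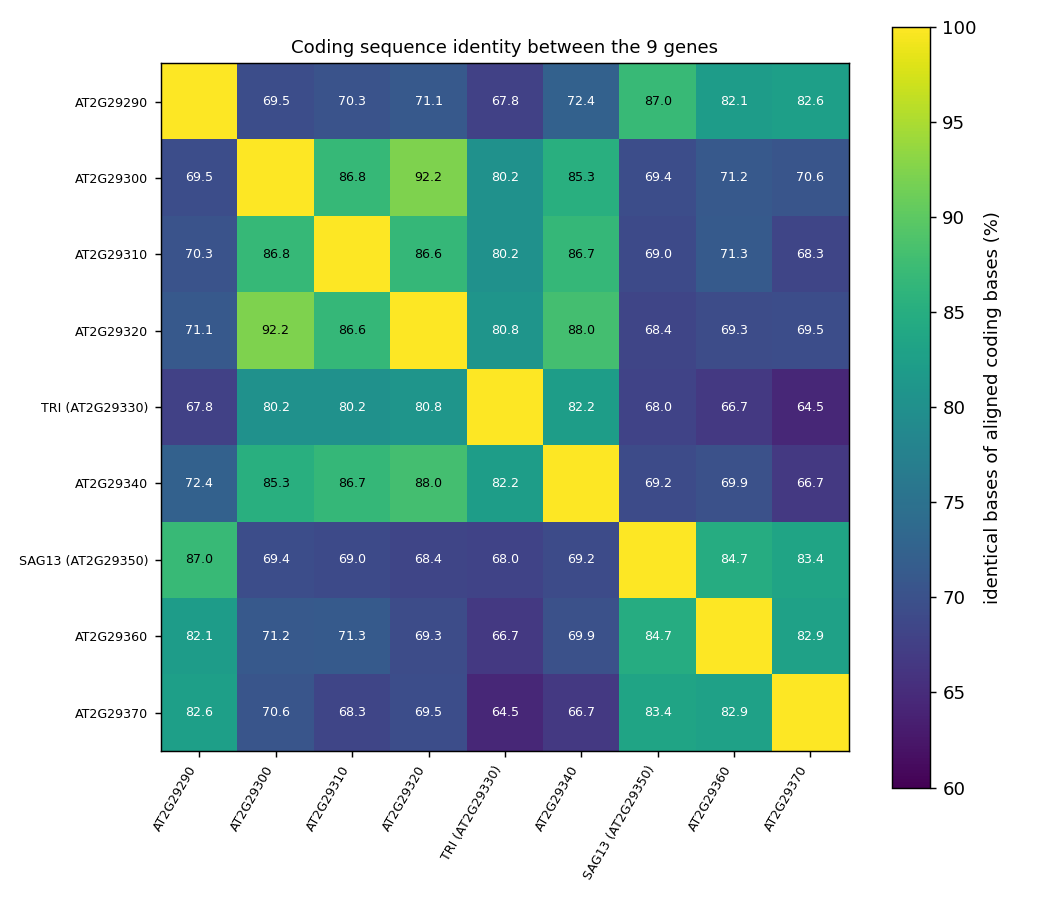
Identity of the coding sequences of the 9 genes, in percent of aligned bases, with genes in chromosome order on both axes and colour running from 60% to 100%. The 5 genes from AT2G29300 to AT2G29340 form 1 block of high identity, and AT2G29290 shares its high values with SAG13, AT2G29360 and AT2G29370.

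Reads from stretches that copies share can be split between them or dropped, depending on the counting. A window of 100 aligned bases at 95% identity or more was shared by SAG13 with AT2G29290 (95%), AT2G29370 (96%) and AT2G29150 (96%), a family member outside the row. AT2G29300 and AT2G29320 shared such a window at 97%, and TRI shared one with AT2G30670 at 95%. AT2G29290 shared one with AT2G29150 at 95% and one with the overlapping pseudogene AT2G29280 at 100%. AT2G29370 shared one with AT2G29150 at 97%. AT2G29310, AT2G29340 and AT2G29360 shared none with any other transcript. AT2G29150 had a count of 0 in all 6 libraries, and AT2G29370 stayed between 20 and 50 counts while SAG13 ranged from 0 to 420. AT2G29290 was far higher, at 2951 to 4364 counts. Whether reads from the stretch it shares with SAG13 were counted for SAG13 was not tested. How the submitters treated such reads is not given in the sources used here.

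SAG13 was close to absent in controls and present in every CsCl library. Its counts were 3, 0 and 8 in control replicates 1, 2 and 3, and 58, 32 and 420 in CsCl replicates 1, 2 and 3. In CPM these were 0.0914, 0 and 0.235 against 1.79, 0.917 and 9.28. A count of 0 in control replicate 2 allows a level of up to 0.0903 CPM, counting error only.

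All 3 CsCl libraries lay above all 3 controls, and CsCl replicate 3 stood far above the other two. The means were 0.109 ± 0.118 CPM in controls and 4.0 ± 4.6 CPM with CsCl (SD, n = 3 per group), so the SD with CsCl was larger than the mean. The log2 fold change was 5.18 ± 0.946 (SE), and the adjusted p by which the gene was chosen was 0.00921 (edgeR quasi-likelihood test, Benjamini-Hochberg over 21005 tested genes). From summed counts of 510 and 11, the ratio was 41.2 with a 95% interval of 22.9 to 83.1. That interval takes each count as independent and covers counting error only.

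The size of the SAG13 difference depended on single libraries, most of all on CsCl replicate 3. Without CsCl replicate 3 the CsCl mean was 1.35 CPM, the ratio of summed counts was 12.2 (95% interval 6.49 to 25.2) and the log2 fold change was 3.57 (edgeR adjusted p = 0.0287). Without control replicate 3 the log2 fold change was 6.39 (edgeR adjusted p = 0.0354). Without control replicate 2 it was 4.61, with an edgeR adjusted p of 0.0498, close to the threshold. The adjusted p was 0.103 with limma-voom and 0.284 with robust edgeR, and it ranged from 1.19e-06 to 0.284 over the 14 alternatives that tested the gene. SAG13 was not tested where 1 CPM was required in 3 samples.

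The spread of SAG13 among CsCl libraries was itself wide. Its log2 CPM covered a range of 3.26 over the 3 CsCl libraries, and 9 of 21005 tested genes covered a wider one. Among the 3241 tested genes with a mean level within 2-fold of its own, 1 was wider. CsCl replicate 3 held 6.86 times the mean of CsCl replicates 1 and 2, and 4 tested genes had a larger ratio. In all, 160 tested genes (0.762%) were at least 2-fold higher in that library by this measure. The other 8 genes of the row had ratios from 0.874 to 1.1.

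**Figure D2:**
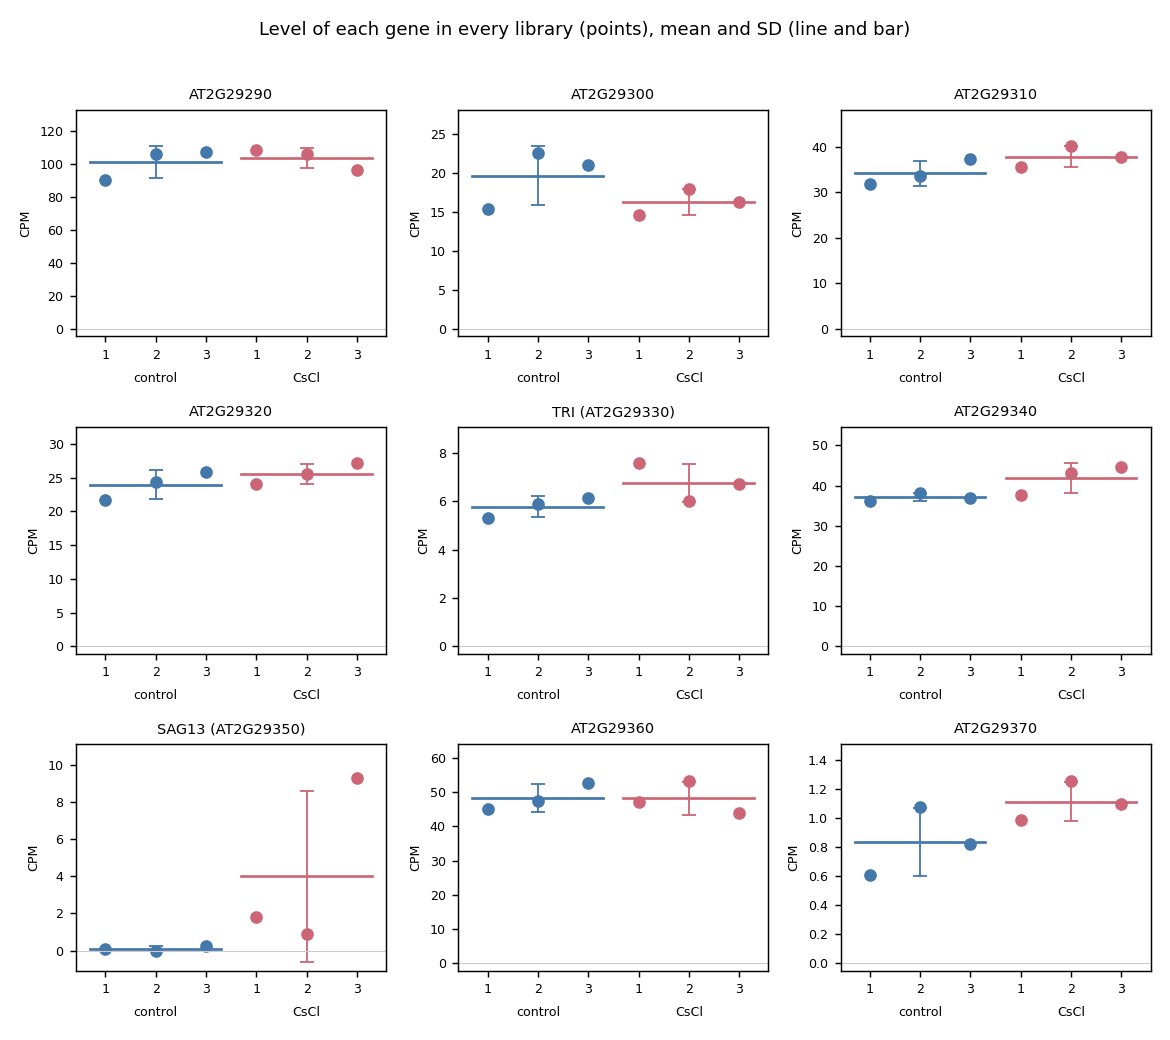
CPM of each of the 9 genes in the 3 control (blue) and 3 CsCl (red) libraries, with the group mean as a line and the SD as a bar; each panel has its own linear axis. SAG13 alone has groups that do not overlap, at 0 to 0.235 CPM in controls and 0.917 to 9.28 CPM with CsCl.

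AT2G29290, the closest to SAG13 in coding sequence within the row, stood at 89.9, 106 and 107 CPM in the controls and at 108, 106 and 96.4 CPM with CsCl. The groups overlapped, and the log2 fold change was 0.03 ± 0.0724. It supplied 34.0% to 38.9% of the row's counts in each library, whereas SAG13 supplied at most 0.0817% in controls and 0.312% to 3.28% with CsCl.

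AT2G29360, the next gene after SAG13 on the chromosome, stood at 45.0, 47.3 and 52.8 CPM in controls and at 47.2, 53.4 and 44.0 with CsCl. Its libraries overlapped fully, with a log2 fold change of -0.01 ± 0.0802. AT2G29370, the last gene of the row, stood at 0.609, 1.08 and 0.822 CPM in controls and 0.988, 1.26 and 1.1 with CsCl. Control replicate 2 lay within the CsCl values, and the log2 fold change was 0.41 ± 0.312.

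The other sequence group holds the 5 genes just before SAG13. AT2G29300 stood at 15.4, 22.6 and 21.0 CPM in controls and 14.6, 18.0 and 16.3 with CsCl. Control replicate 1 lay among the CsCl values, and the log2 fold change was -0.27 ± 0.124 (edgeR adjusted p = 0.339). Without control replicate 1 it was -0.42, with an adjusted p of 0.0298, so this 1 library decided whether AT2G29300 passed.

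AT2G29310 stood at 31.9, 33.5 and 37.2 CPM in controls and 35.5, 40.1 and 37.7 with CsCl (log2 fold change 0.14 ± 0.0744). AT2G29320 stood at 21.7, 24.3 and 25.9 CPM in controls and 24.0, 25.5 and 27.1 with CsCl (0.09 ± 0.0815). In both genes at least 1 control lay among the CsCl libraries.

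TRI stood at 5.30, 5.87 and 6.14 CPM in controls and 7.56, 5.99 and 6.69 with CsCl (log2 fold change 0.22 ± 0.132). AT2G29340, the gene just before SAG13, stood at 36.1, 38.2 and 37.0 CPM in controls and 37.6, 43.2 and 44.6 with CsCl (0.17 ± 0.0722). In each of them 1 CsCl library lay below the highest control.

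Of the 9 genes, 1 was past the edgeR test as higher (SAG13) and none as lower. Over all 21005 tested genes 0.843% were past it as higher and 1.32% as lower, 2.16% in either direction. At an unadjusted p under 0.05 there were 3 members (SAG13, AT2G29300 and AT2G29340), against 3029 of all tested genes. DESeq2 and limma-voom each called 0 members lower. The adjusted p of the 8 genes other than SAG13 ran from 0.282 to 0.981. SAG13 was the 1 member whose groups did not overlap; 10.0% of tested genes were fully higher and 9.75% fully lower, 19.8% in either direction. As the contrast was used to choose SAG13, nothing is read from these counts. The median log2 fold change of the 9 genes was 0.14, beside 0.0052 over all tested genes.

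The 9 genes together stood at 246, 279 and 288 CPM in controls and at 277, 294 and 283 CPM with CsCl, and the groups overlapped. Without SAG13 the means were 271 ± 21.8 CPM in controls and 281 ± 10.6 CPM with CsCl (SD, n = 3 per group).

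To compare genes with each other, CPM was divided by the length of the longest annotated transcript in kilobases. In controls the order of levels per kilobase was AT2G29290 (55.0 ± 5.14), AT2G29360 (44.9 ± 3.70), AT2G29310 (26.4 ± 2.10), AT2G29340 (19.6 ± 0.560), AT2G29300 (19.2 ± 3.64), AT2G29320 (17.3 ± 1.51), TRI (5.28 ± 0.391), AT2G29370 (0.756 ± 0.214) and SAG13 (0.0797 ± 0.0868). The values of AT2G29300 in single controls, 15.1 to 22.0 per kilobase, covered those of AT2G29340 and AT2G29320, so AT2G29300 could not be placed against either beyond its spread. AT2G29340 (19.0 to 20.2) lay above AT2G29320 (15.7 to 18.7) in all controls. AT2G29290 and AT2G29360 touched, with 49.0 per kilobase as the lowest value of the first and the highest of the second. The lower 3 genes were separate from each other and from the rest in every control.

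With CsCl, SAG13 no longer had the lowest mean per kilobase, at 2.93 ± 3.37 beside 1.01 ± 0.123 for AT2G29370. The libraries of these 2 genes overlapped: SAG13 stood at 1.31, 0.672 and 6.80 per kilobase and AT2G29370 at 0.891, 1.14 and 0.996. In CsCl replicate 2 SAG13 was the lower gene. Without CsCl replicate 3 the mean of SAG13 was 0.992 per kilobase and that of AT2G29370 was 1.01, too close to order the 2 genes. In CsCl replicate 1 SAG13 was the higher gene. In CsCl replicate 3 it stood at about the level of TRI, which had 6.12 per kilobase there.

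**Figure D3:**
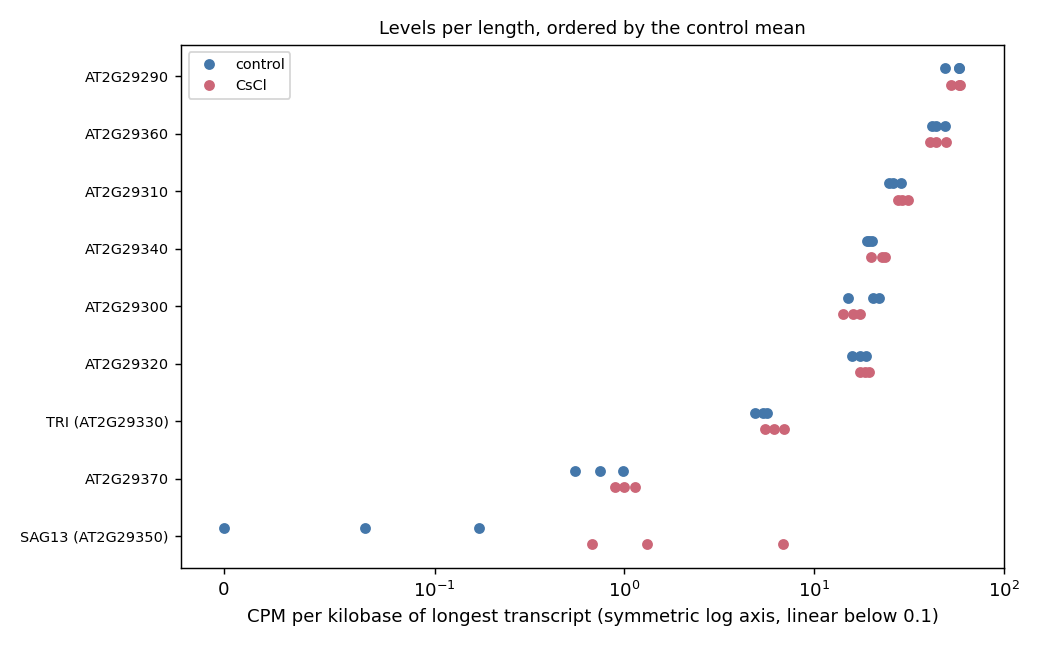
CPM per kilobase of longest transcript of the 9 genes in each control (blue) and CsCl (red) library, on a symmetric log axis that is linear below 0.1, with genes ordered by control mean. SAG13 moves from 0 to 0.172 in controls to 0.672 to 6.80 with CsCl, while the points of both groups overlap in the other 8 genes.

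The genes just outside the row were examined by position. Of 12 flanking genes, 6 on each side, 8 were tested and none was past the edgeR test (DESeq2 and limma-voom also called 0). At an unadjusted p under 0.05 (edgeR) there was 1, beside 3029 of all 21005 tested genes. The median log2 fold change of the 8 was 0.02. HAI3 (AT2G29380), a protein phosphatase gene induced by abscisic acid and the next gene after the row, was counted 56, 31 and 38 times in controls and 42, 34 and 38 times with CsCl. GSTU7 (AT2G29420), a glutathione transferase gene, had 2.38, 1.99 and 0.793 CPM in controls and 2.28, 3.04 and 2.96 with CsCl, with overlap (edgeR adjusted p = 0.316).

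Of 7 tropinone reductase-like genes outside the row, 5 were tested (AT2G29260 is also among the flanking genes), none was past the edgeR test, none had an unadjusted p under 0.05, and DESeq2 and limma-voom called 0. Their median log2 fold change was 0.06. AT5G06060 stood at 33.3 ± 0.748 CPM in controls and 33.8 ± 0.739 CPM with CsCl, and AT1G07440 at 21.0 ± 2.10 and 22.7 ± 1.61 CPM.

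**Figure D4:**
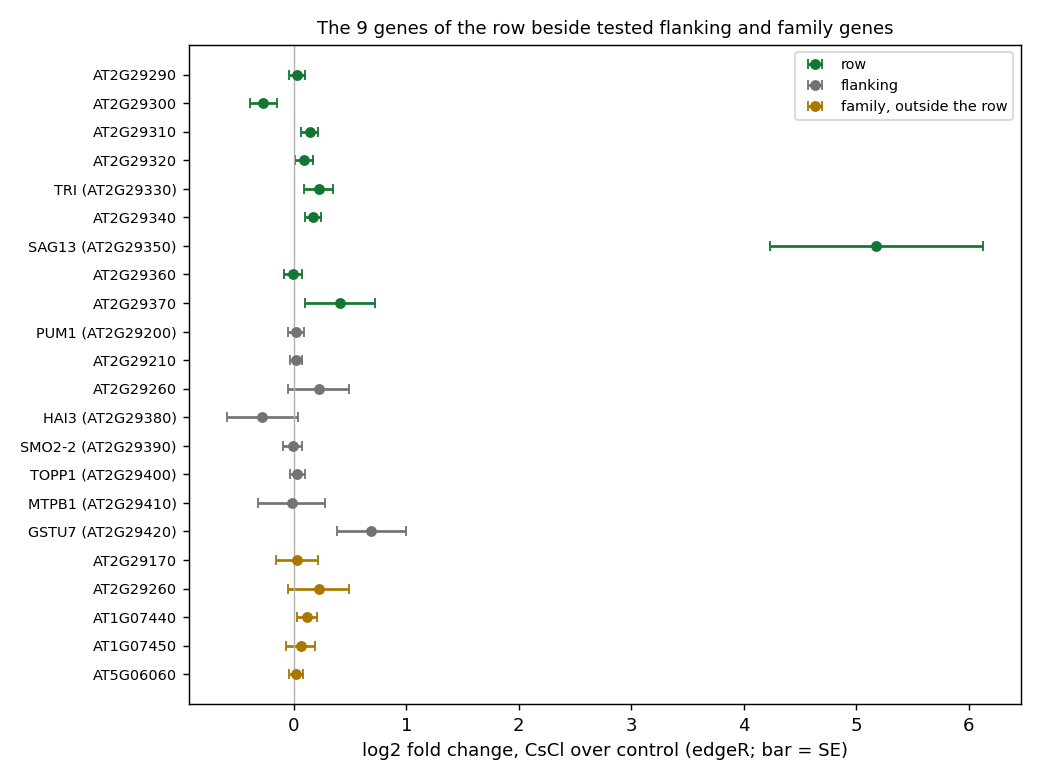
Log2 fold change of CsCl over control with its SE (edgeR) for the 9 genes of the row (green), 8 tested flanking genes (grey) and 5 tested family genes outside the row (ochre; AT2G29260 belongs to both lists). SAG13 lies at 5.18, and the other 8 genes of the row lie between -0.27 and 0.41.

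In the 250 bases before the annotated start, the pattern TGACG, the core of sites bound by TGA factors, was found on neither strand in any of the 9 genes; 18.6% of 27443 protein-coding genes held it. TTGAC, the core of the W-box bound by WRKY factors, was found in 5 of 9, SAG13 with 1 match among them, against 44.9% of all genes. TRI had 4 matches. The letters of both patterns can overlap as TTGACG, which was in none of the 9. A match is not a binding site, and its absence from this window says nothing about a factor.

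SAG13 carries the name of senescence-associated genes, and 26 other genes of senescence and chlorophyll breakdown were counted. Of the 24 tested, 1 was past the edgeR test as higher and 0 as lower, beside 0.843% and 1.32% of all tested genes. At an unadjusted p under 0.05 (edgeR) there were 2, beside 3029 of all 21005. DESeq2 and limma-voom also called 0 lower. The median log2 fold change of the 24 was 0.00. The higher gene was BCB, also called SAG14 (AT5G20230), a blue copper-binding protein gene. It stood at 1.28, 0.903 and 0.558 CPM in controls and at 3.21, 3.21 and 3.07 CPM with CsCl, with no overlap. It rose by 1.79 ± 0.264 on a log2 scale (adjusted p = 0.00239, edgeR). Unlike in SAG13, its 3 CsCl libraries were level. SAG12 (AT5G45890), the cysteine protease gene of late senescence, had a count of 0 in all 6 libraries. NYE1 (AT4G22920), which starts chlorophyll breakdown, stood at 21.3 ± 1.99 and 21.5 ± 1.48 CPM.

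Among 16 genes of salicylate signalling and pathogen defence, 12 were tested, 1 was past the edgeR test as higher and 1 as lower. The shares over all tested genes were 0.843% and 1.32%. The median log2 fold change of the 12 was 0.22. At an unadjusted p under 0.05 (edgeR) there were 6, beside 3029 of all 21005 tested genes. Positive log2 fold changes were those of PR1 (3.89), BGL2 (2.55), SARD1 (1.01), PBS3 (0.97) and CBP60G (0.54), each highest in CsCl replicate 3. EDS5 was negative. BGL2, SARD1, PBS3 and CBP60G were not past the adjusted threshold and were named after their values were seen. PR1 (AT2G14610), a pathogenesis-related protein gene, was counted 2, 4 and 6 times in controls and 22, 11 and 194 times with CsCl. As in SAG13, the highest library was CsCl replicate 3, at 8.62 times the mean of the other two. The edgeR adjusted p of PR1 was 0.0388, and without CsCl replicate 3 it was 0.247. The call was also lost without any 1 of the controls, with limma-voom and with robust edgeR, over a range of 0.000185 to 0.334. EDS5 (AT4G39030), a transporter gene needed for salicylate accumulation, went from 17.0 ± 0.454 to 12.4 ± 1.08 CPM (log2 fold change -0.45 ± 0.0892, adjusted p = 0.0163 by edgeR), a call lost without CsCl replicate 1 or 2 (0.0954 at most over the alternatives).

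Of 13 genes that respond to electrophiles and xenobiotics, 3 were past the edgeR test as higher and 0 as lower. The shares over all tested genes were 0.843% and 1.32%. The median log2 fold change of the 13 was -0.05. At an unadjusted p under 0.05 (edgeR) there were 7, beside 3029 of all 21005 tested genes. Of the 7, 4 had a positive and 3 a negative log2 fold change. The negative ones were OPR1 (-0.43), GSTU25 (-0.79) and GSTU19 (-0.24), named after their values were seen. Control replicate 1 was the highest of the 6 libraries for 9 of the 13 genes, with GSTU25 at 36.5 CPM there against 13.7 and 15.0 in the other controls. Without that library 5 genes were higher. DESeq2 and limma-voom also called 0 lower. AER (AT5G16970), an alkenal reductase gene, rose from 42.2 ± 1.28 to 55.1 ± 1.17 CPM (edgeR adjusted p = 0.003), and the cytochrome P450 gene CYP81D8 (AT4G37370) from 1.80 ± 0.232 to 3.83 ± 0.153 CPM (edgeR adjusted p = 0.00575). The glucosyltransferase gene UGT74E2 (AT1G05680), named after its values were seen, rose from 2.00 ± 1.86 to 6.4 ± 1.65 CPM (edgeR adjusted p = 0.0495), a call kept in 6 of 15 alternatives and lost with DESeq2 and without either of control replicates 2 and 3 or any 1 of the CsCl libraries. CsCl replicate 3 was the highest library for CYP81D8, at 4.0 CPM against 3.70 and 3.78, and not for AER or UGT74E2.

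Of 6 root tissue markers, 5 were past the edgeR test as lower and 0 as higher. The shares over all tested genes were 1.32% and 0.843%. The median log2 fold change of the 6 was -0.35. CASP2 (AT3G11550), an endodermal Casparian strip gene, fell from 25.8 ± 1.74 to 18.7 ± 0.802 CPM (edgeR adjusted p = 0.00537), and PYK10 (AT3G09260), a root beta-glucosidase gene, from 5788 ± 171 to 4462 ± 299 CPM (edgeR adjusted p = 0.0084). PYK10 had an edgeR adjusted p of 0.0873 without CsCl replicate 2, and of 0.0556 with replicate number added to the fit as a block. Without 1 library, 1 to 4 root markers were lower; the 1 was without CsCl replicate 2. In bulk plants, fewer cells of a type and less RNA per cell cannot be told apart. Of 8 green tissue markers 0 were past the edgeR test, while DESeq2 called 1 lower and limma-voom 0. At an unadjusted p under 0.05 (edgeR) there were 2, beside 3029 of all 21005 tested genes. The part of tissue makeup in the SAG13 values was not tested.

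The 5 tested genes at the smallest distance from SAG13 over the 6 libraries were AT4G12490, AIG1, ELI3-2, NATA1 and PR1. Distance here is the root mean square difference of log2 CPM centred on each gene. None of the 5 lies in the row. The distance was 0.43 for AT4G12490 and 1.04 for PR1, while the 8 other genes of the row had distances of 2.32 to 2.57. Between 1881 and 19514 tested genes lay nearer to SAG13 than each of its neighbours in the row. The distance is not scaled by gene, so genes with little difference lie about equally far from SAG13 whatever their pattern. These ranks therefore do not measure likeness of pattern.

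AT4G12490 was counted 3, 0 and 4 times in controls and 28, 20 and 204 times with CsCl. AIG1 (AT1G33960), a gene induced upon recognition of a bacterial avirulence protein, had 0, 0 and 4 against 25, 40 and 206 counts. Both had CsCl replicate 3 far above the others, at 6.27 and 4.75 times their mean.

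ELI3-2 (AT4G37990), an aromatic alcohol dehydrogenase gene induced by bacteria, was counted 0, 0 and 1 times in controls and 31, 14 and 68 times with CsCl. The ratio of its summed counts was 101 with a 95% counting interval of 17.7 to 4004. NATA1 (AT2G39030), an ornithine acetyltransferase gene, had a count of 0 in every control and 34, 28 and 92 with CsCl, at least 45.7-fold higher against a floor of 3 counts over the controls. In both genes CsCl replicate 3 was highest, by less than in SAG13, at 2.21 and 2.20 times the mean of the other two.

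All 5 were past the edgeR test, and since a small distance from SAG13 picked them, this is a description. Like SAG13, they passed the filter on low counts only through the CsCl libraries. AT4G12490 lost its call with limma-voom, with robust edgeR and when CsCl replicate 3 or either of control replicates 2 and 3 was left out, and AIG1 with robust edgeR. Without CsCl replicate 3 the ratio of summed counts was 10.2 for AT4G12490, 24.2 for AIG1, 66.9 for ELI3-2 and 4.09 for PR1, and at least 30.7 for NATA1.

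**Figure D5:**
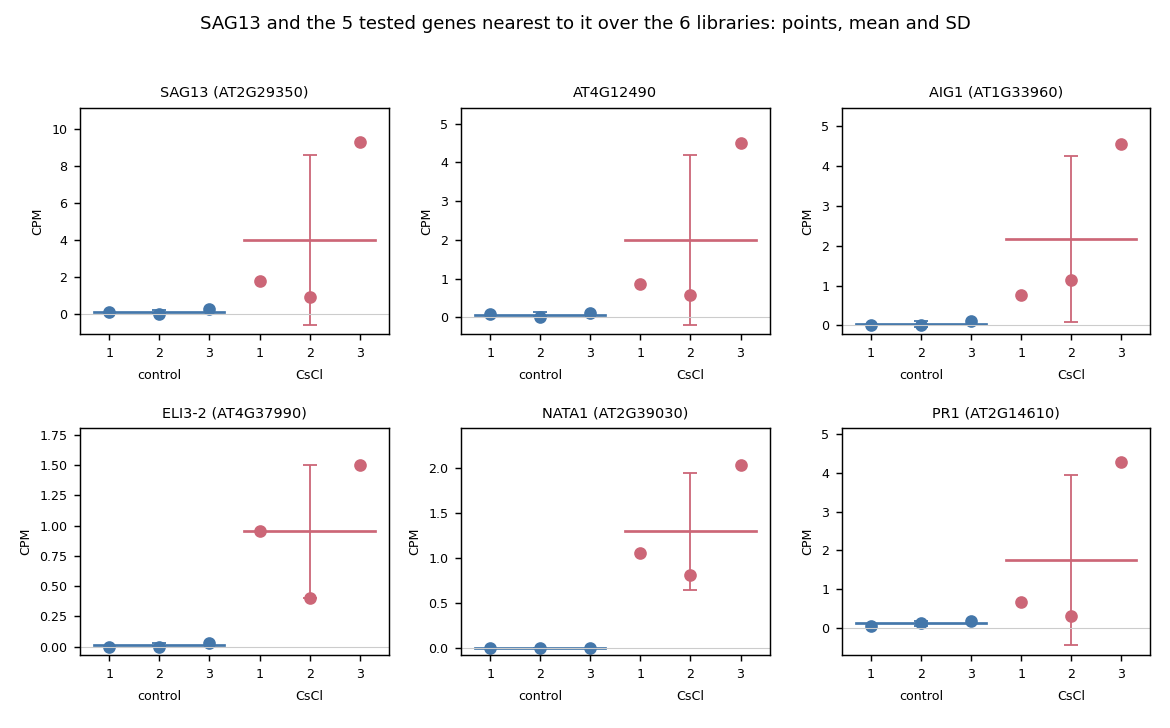
CPM of SAG13 and of the 5 tested genes nearest to it in each control (blue) and CsCl (red) library, with group mean and SD; each panel has its own linear axis. In all 6 genes the 3 CsCl libraries lie above the 3 controls and CsCl replicate 3 is the highest, at 9.28 CPM for SAG13 and 4.29 CPM for PR1.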

How the data were processed

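Each sample has 1 deposited table of whole-number counts by gene ID, which the authors had not normalized. FastQC, STAR, featureCounts, edgeR and the TAIR10 build are named without versions, per the submitters' processing notes. The library kit keeps the strand of the mRNA, per the labels' protocols. The annotation release, the strand setting and the treatment of pairs and of reads with several matches were not stated there. Members and gene lists were chosen with earlier results of these data known.

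Genes were tested across the whole table with edgeR 4.0.16 in R 4.3.3: filterByExpr left 21005 genes, TMM factors lay between 0.961 and 1.03, and a quasi-likelihood test of group was followed by Benjamini-Hochberg adjustment, threshold 0.05. The fit was run on simulated counts that gave every gene the same spread (a common dispersion of 0.00636). SAG13 spread far more widely with CsCl, so that run says nothing about its call. The SE was obtained from the coefficient without shrinkage and the F statistic. CPM use TMM-scaled library sizes, and log2 CPM a prior count of 2. Counting intervals are exact binomial. Alternatives were other scaling factors, other filters, DESeq2 1.42.0, limma 3.58.1 (voom), robust edgeR, a replicate block, leaving out each library and halved counts. No 2 samples of a group looked like copies (chi-square per gene 6.39 to 13.1).

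Names, lengths, coding sequences and starts came from RefSeq TAIR10.1, which matched all 32548 chromosomal IDs; as the build differs, no coordinates are given. Coding sequences were aligned globally (Biopython 1.88) and transcripts searched with BLAST 2.17.0. Identity was computed on coding bases, in place of the planned protein alignment. Named genes were the 9 members, in each list the 2 genes with the smallest adjusted p past the test per direction, flanking genes past the test and the 5 nearest to SAG13; others were named after their values were seen.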

Additional observations from a re-analysis of the deposited data

How the results depend on the processing

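SAG13 kept a positive log2 fold change in all 14 alternatives that tested it, from 3.57 to 6.39 (the ends being without CsCl replicate 3 and without control replicate 3, and also the range when 1 library is left out). It was 5.26 with limma-voom (adjusted p = 0.103) and 5.18 with robust edgeR (adjusted p = 0.284), both past the threshold no longer. Members past the test as higher were 0 with limma-voom, with robust edgeR and with a filter of 1 CPM in 3 samples. When 1 library was left out, members past as lower were 0 to 1, all genes past the test 89 to 231 higher and 90 to 330 lower, salicylate genes 0 to 2 higher and 0 to 1 lower, electrophile genes 2 to 5 higher, green tissue markers 0 to 1 lower and root markers 1 to 4 lower. Scaled by total counts only, 180 genes and 2 root markers were lower. With no filter on low counts, 301 genes were higher and 518 lower, with 2 senescence and 2 salicylate genes higher, and 2 electrophile genes and 1 green marker lower. Salicylate genes higher were 0 with a filter of 1 CPM in 3 samples, limma-voom, robust edgeR and halved counts, and DESeq2 called 1 green marker lower. Fold changes near 0 turned sign: AT2G29360 was 0.03 by total counts, 0.06 without control replicate 3, 0.00 without CsCl replicate 1 and 0.05 without CsCl replicate 3 (range -0.09 to 0.06 with 1 library left out), and AT2G29290 was -0.04 without control replicate 1 (range -0.04 to 0.08). The cause of these shifts was not tested. Over all tested genes, same-numbered samples did not deviate together (correlations -0.08, 0.04 and -0.01). Correlations over all genes cannot settle this for a single gene, and the labels do not say what the numbers mean. SAG13 had replicate 2 lowest and replicate 3 highest in both groups, whereas AT2G29290 had opposite orders. With the replicate block SAG13 was 5.14 (edgeR adjusted p = 7.11e-05). In that fit 3 root markers were lower, PYK10 no longer among them (edgeR adjusted p = 0.0556). Counts of 11 over the controls limit the precision of any SAG13 fold.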
